A study of Mus musculus with 79 samples.

Results

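The comparison described here set Th17n cells cultured with DHEA against Th17n cells cultured with methanol, its solvent, in unsorted cells. Its libraries were chosen by their titles, as the DHEA and the methanol libraries of the unsorted Th17n cells. They numbered 10 of the 79 libraries of the series, 5 with DHEA and 5 with methanol. Mouse T cells had been labelled with CFSE, a dye that is diluted at each cell division, and cultured toward T helper 17 (Th17) cells. TGFb and IL-6 gave Th17n, the non-pathogenic type, and IL-23 with IL-6 and IL-1b gave Th17p, the pathogenic type. DHEA was given at 50 µM. EGCG (epigallocatechin gallate, a green tea catechin), given at 20 µM with DMSO as its solvent, was the other compound of the series. Cells were either taken unsorted (Total), as a mixture of cells that had divided to differing extents, or sorted after exactly 1 division (Div.1). The design text gave 5 mice as the replicates of a condition. Strain, age, genotype, tissue of origin and length of culture were not given in the sources used here.

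Th17 cells are CD4 T cells that make interleukin-17A and interleukin-17F. With TGFb and IL-6 alone they also make IL-10 and IL-9 and are poor at causing tissue inflammation, whereas IL-23 and IL-1 move them toward a pathogenic state. DHEA (dehydroepiandrosterone) is an adrenal steroid, a precursor of androgens and estrogens, and is known as an inhibitor of glucose-6-phosphate dehydrogenase, the first enzyme of the pentose phosphate pathway, which makes NADPH and ribose phosphate. NADPH is used for reductive synthesis of fatty acids and sterols and for keeping glutathione reduced.

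RNA was measured as TPM, the share of a transcript in a library scaled for gene length. The DHEA libraries came from wells 6 to 10 of plate row H and the methanol libraries from wells 6 to 10 of row F, so plate row and treatment cannot be told apart. Values per library are given below in the order of plate columns 6 to 10. Between 9595 and 9752 genes reached 1 TPM in the DHEA libraries and between 9483 and 9588 in the methanol libraries. In a DHEA library 7.82% to 8.35% of all TPM came from its 10 top genes, in a methanol library 7.32% to 7.49%. Correlations across genes between libraries of a group ran from 0.9902 to 0.9925, and no 2 libraries were identical. On a principal component analysis of the 10 libraries the first component, with 53.4% of the variance, separated DHEA from methanol. On the second, with 8.78%, the column 10 libraries of both groups stood apart from the other 8. The depth of sequencing was unknown, because TPM keep no read counts.

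The label of the cells was checked against marker genes. The summed level of 10 T cell markers ran from 3166 to 3525 TPM with DHEA and from 2735 to 3084 TPM with methanol. Cd3d, Cd3e and Cd3g, subunits of the T cell receptor complex, and Cd4 were present in all 10 libraries. Among 10 markers of CD8 T and NK cells, the sum ran from 25.6 to 31.2 TPM with DHEA and from 17.5 to 25.5 TPM with methanol. Most of it came from Klrd1, at a mean of 15.7 and 14.5 TPM, and Cd8b1, at 10.2 and 5.92 TPM, while Cd8a was at 0.301 and 0.0784 TPM and Ncr1 at 0. The 7 B cell markers in the table summed to 2.32 to 5.61 TPM with DHEA and 1.07 to 1.89 TPM with methanol. That sum was mostly Cd79b, at 2.80 and 0.871 TPM, with Ms4a1 at or near 0. Sums of the 10 myeloid markers stayed below 0.7 TPM in every library. For dendritic cells (8 markers), stromal cells (10) and erythroid cells (7) the sums reached at most 2.73, 15.1 and 3.88 TPM, and the ranges of both groups overlapped. The 3 gamma-delta T cell markers in the table summed to at most 0.132 TPM. The part of such cells in the results was not tested.

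To show what the genes below carry at their starts, 8 promoters are printed from RefSeq on GRCm38.p6, each from 250 bases before to 50 bases after a start, in the direction of the gene. They were chosen for the 2 interleukin-17 genes, for Cyp1b1, Cdkn1a and for 4 mitotic genes, all of which changed with DHEA. A match of letters is a description of the window and not a site.
In the Il17a window (chr1:20730655-20730954, plus strand) and the Il17f window (chr1:20784221-20784520, minus strand), capitals mark AGGTCA on either strand, a half-site of nuclear receptors, which 16.3% of all 32851 windows held. A window of 8 of 22 core Th17 genes (36.4%) and of 18.1% of all genes held it. The Il17f start of RefSeq lies inside the longer annotated gene given below.
Il17a: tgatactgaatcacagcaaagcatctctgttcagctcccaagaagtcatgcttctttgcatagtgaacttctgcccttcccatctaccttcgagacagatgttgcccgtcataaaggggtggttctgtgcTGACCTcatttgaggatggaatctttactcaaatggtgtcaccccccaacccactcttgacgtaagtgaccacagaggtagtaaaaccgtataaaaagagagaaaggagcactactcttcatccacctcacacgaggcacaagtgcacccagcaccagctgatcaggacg
Il17f: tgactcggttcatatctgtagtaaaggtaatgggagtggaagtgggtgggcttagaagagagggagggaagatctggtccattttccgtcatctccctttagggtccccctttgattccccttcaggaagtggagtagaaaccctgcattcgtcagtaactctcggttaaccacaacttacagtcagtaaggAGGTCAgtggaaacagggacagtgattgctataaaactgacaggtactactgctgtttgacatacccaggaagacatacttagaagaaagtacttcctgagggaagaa
In the Cyp1b1 window (chr17:79715012-79715311, minus strand) capitals mark GCGTG on either strand, the core of the aryl hydrocarbon receptor element, which 32.4% of all windows held.
Cyp1b1: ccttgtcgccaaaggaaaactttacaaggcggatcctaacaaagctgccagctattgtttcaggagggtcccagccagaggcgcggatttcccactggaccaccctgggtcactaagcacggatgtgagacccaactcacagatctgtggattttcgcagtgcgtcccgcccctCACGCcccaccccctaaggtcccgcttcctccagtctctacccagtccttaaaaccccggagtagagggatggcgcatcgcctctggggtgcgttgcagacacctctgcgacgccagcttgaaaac
For Cdkn1a the window of its upstream start is shown (chr17:29090729-29091028, plus strand), with ACATGT in capitals, the core letters of its p53 response element, which 5.28% of all windows held at least once.
Cdkn1a: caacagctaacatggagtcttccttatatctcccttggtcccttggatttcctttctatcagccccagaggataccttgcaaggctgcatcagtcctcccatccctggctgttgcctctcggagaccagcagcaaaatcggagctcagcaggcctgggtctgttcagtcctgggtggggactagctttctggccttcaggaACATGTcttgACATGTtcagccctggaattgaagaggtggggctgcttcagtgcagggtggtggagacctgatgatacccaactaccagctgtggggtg
For Cenpa (chr5:30666636-30666935, plus strand), Cdc20 (chr4:118437294-118437593, minus strand), Plk1 (chr7:122159185-122159484, plus strand) and Hmmr (chr11:40733388-40733687, minus strand) capitals mark TTTGAA on either strand, the cell cycle genes homology region (CHR) through which the DREAM and MuvB complexes act on mitotic genes. In each window only the motif named for it is capitalised.
Cenpa: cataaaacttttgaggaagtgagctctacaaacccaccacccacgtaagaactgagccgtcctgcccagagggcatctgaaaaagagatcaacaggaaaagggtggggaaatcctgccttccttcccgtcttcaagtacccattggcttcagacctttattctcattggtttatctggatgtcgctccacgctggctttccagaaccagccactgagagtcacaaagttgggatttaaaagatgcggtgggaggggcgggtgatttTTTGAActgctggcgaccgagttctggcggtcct
Cdc20: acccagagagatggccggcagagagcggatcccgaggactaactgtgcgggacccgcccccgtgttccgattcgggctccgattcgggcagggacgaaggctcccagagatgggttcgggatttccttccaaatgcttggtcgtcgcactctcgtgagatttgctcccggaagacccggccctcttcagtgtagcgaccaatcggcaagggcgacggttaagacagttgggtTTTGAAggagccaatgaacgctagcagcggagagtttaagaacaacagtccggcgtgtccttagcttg
Plk1: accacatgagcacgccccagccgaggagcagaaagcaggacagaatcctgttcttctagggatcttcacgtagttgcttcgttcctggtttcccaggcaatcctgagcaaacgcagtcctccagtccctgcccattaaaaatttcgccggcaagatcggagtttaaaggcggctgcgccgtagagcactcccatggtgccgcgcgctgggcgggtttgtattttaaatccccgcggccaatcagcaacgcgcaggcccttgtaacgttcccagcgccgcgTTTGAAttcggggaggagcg
Hmmr: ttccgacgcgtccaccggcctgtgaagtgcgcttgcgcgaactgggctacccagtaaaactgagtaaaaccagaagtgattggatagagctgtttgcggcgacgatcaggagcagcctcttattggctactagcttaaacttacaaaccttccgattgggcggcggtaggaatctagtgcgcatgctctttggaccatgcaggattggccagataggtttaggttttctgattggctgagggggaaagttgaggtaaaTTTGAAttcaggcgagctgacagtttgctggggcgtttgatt
TTTGAA stood in a window of 17 of the 23 listed G2 and mitosis genes that had a window (73.9%), in 3 of 25 DNA replication genes (12%) and in 20.2% of all 27025 genes. No test was made of these shares, and the lists were chosen with the functions of the genes known.

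DHEA changed a large part of the measured transcriptome in unsorted Th17n cells. Of 10672 genes tested, 4924 (46.1%) differed from methanol at an adjusted p under 0.05 (limma, Benjamini-Hochberg). Of these, 2220 (20.8%) were higher with DHEA and 2704 (25.3%) were lower. Most changes were small, and a change of at least 2-fold was reached by 373 genes (3.5%), 210 (1.97%) of them higher and 163 (1.53%) lower. The median change over all genes was -0.01 on the log2 scale. For 3486 genes (32.7%) the 5 DHEA libraries did not overlap the 5 methanol libraries. In bulk RNA, fewer cells of a type and less RNA per cell cannot be told apart, which applies to every change below. Log2 changes below are differences of log2(TPM + 1), which understate the fold of genes at low TPM, and errors after ± are SD over 5 libraries unless called SE.

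The interleukin genes that define Th17 cells fell with DHEA. Il17a (chromosome 1, 20730905 to 20734496, plus strand), which encodes interleukin-17A, stood at 29.7, 42.3, 12.4, 6.54 and 6.59 TPM in the DHEA libraries and at 225, 435, 439, 324 and 399 TPM in the methanol libraries. Even the lowest methanol library was 5.32-fold above the highest DHEA library. The change was -4.48 on the log2 scale (SE 0.44, adjusted p = 1.82e-13 by limma). Il17f (chromosome 1, 20777146 to 20790617, minus strand), its neighbour, stood at 932, 1341, 692, 753 and 896 TPM with DHEA and at 4853, 5278, 5359.6, 4104 and 5389.9 TPM with methanol. Again no library overlapped, and the change was -2.47 (SE 0.20, adjusted p = 3.93e-17). The mean level with DHEA was thus 923 ± 254 TPM, so Il17f remained an abundant transcript, whereas Il17a was left at 19.5 ± 15.9 TPM.

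Of 4 transcription factors of these cells named here, 2 fell and 2 were not called. Rora, an orphan nuclear receptor, had a change of 0.61 (adjusted p = 0.0687) and was not called. It was called without the methanol library of column 10 (0.74, adjusted p = 0.0349), after rescaling by the median ratio (0.64, adjusted p = 0.0492) and in a fit on these 10 libraries alone (adjusted p = 0.0216). Maf, a factor needed for IL-10 in these cells, stood at 43.9 ± 2.16 TPM with DHEA and 42.8 ± 2.74 TPM with methanol, with a change of 0.04. Batf, a partner of IRF4 at Th17 loci, fell by 0.37 (adjusted p = 1.63e-06), and Ikzf3 (Aiolos) had a change of -0.54 (adjusted p = 6.80e-07).

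Receptors through which Th17 cells read IL-23 and IL-1 also fell. Il23r stood at 0.0349 to 0.352 TPM with DHEA and 2.62 to 5.32 TPM with methanol, a change of -1.94 (adjusted p = 1.00e-13). Il1r1 had a range of 0.641 to 1.31 TPM against 3.005 to 5.43 TPM and a change of -1.42 (adjusted p = 1.13e-10). Tmem176a and Tmem176b, ion channel genes, changed by -1.91 and -1.94. Of the 24 core Th17 genes tested, 10 fell, 7 rose and 7 were not called, with a median of -0.19. Over all genes 20.8% rose, 25.3% fell and the median was -0.01, and the counts of each list below stand beside those values. The 7 that rose included Il21r (1.02) and Nkg7 (2.78), and 1 of the uncalled was Ccr6 (-0.17), the chemokine receptor by which Th17 cells enter inflamed tissue. Ccl20, the ligand of CCR6, had a change of -0.90 (adjusted p = 0.0249). Its groups overlapped, and its call was lost without the DHEA library of column 6 (adjusted p = 0.0717) or column 10 (adjusted p = 0.0725) and without the methanol library of column 8 (adjusted p = 0.0613) or column 10 (adjusted p = 0.0802).

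**Figure D1:**
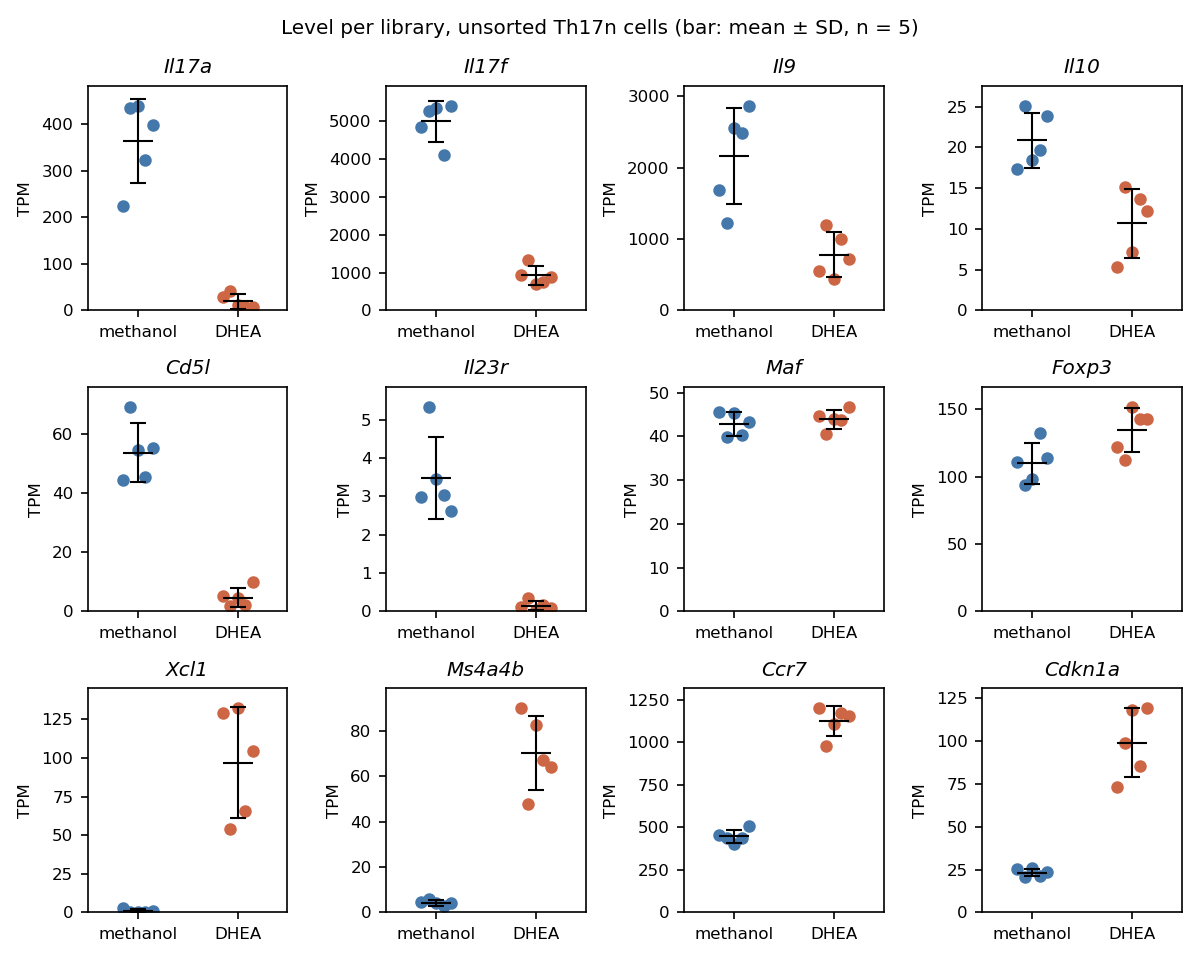
Level in TPM of 12 genes in each library of unsorted Th17n cells with methanol or DHEA, with the mean and SD of 5 libraries. The points of Il17a, Il17f, Il9, Il10, Cd5l and Il23r lie lower with DHEA without overlap, those of Maf and Foxp3 overlap, and those of Xcl1, Ms4a4b, Ccr7 and Cdkn1a lie higher without overlap.

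The genes of the non-pathogenic Th17 signature fell as well. Of 7 tested, 5 fell and 0 were called higher (0 at an unadjusted p under 0.05), with a median of -0.54. Il9, a cytokine that Th17n cells make with TGFb, stood at 547, 1198, 434, 1003 and 720.0 TPM with DHEA and at 1687, 1229, 2548, 2479.7 and 2857 TPM with methanol. The highest DHEA library and the lowest methanol library, both from column 7, lay close together, and the change was -1.501 (SE 0.37, adjusted p = 0.000494). Il10, the regulatory cytokine, stood at 5.26, 15.1, 7.18, 13.7 and 12.2 TPM and 17.4, 25.02, 18.5, 19.6 and 23.8 TPM. Its change was -0.98 (SE 0.21, adjusted p = 0.000106), again without overlap. Il1rn, which encodes the antagonist of the IL-1 receptor, had 10.7 ± 3.96 TPM with DHEA and 51.1 ± 19.9 TPM with methanol and a change of -2.14 (adjusted p = 2.66e-09). Cd5l, a secreted protein that restrains the pathogenicity of Th17 cells through their lipids, stood at 5.09, 1.72, 4.47, 2.06 and 10.1 TPM with DHEA and at 44.3, 68.9, 54.5, 45.3 and 55.1 TPM with methanol. It had the second largest fall after Il17a among the genes named by rule, -3.44 (SE 0.28, adjusted p = 1.49e-16). Il6st (-0.19) and Maf were the 2 members not called.

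The pathogenic signature moved less uniformly. Of 16 tested, 6 rose, 1 fell and 9 were not called, with a median of 0.21. The risers were Lag3 (2.39), Lgals3 (1.54), Ccl4 (1.35), Lrmp (0.87), Stat4 (0.76) and Icos (0.52), and the member that fell was Il23r. Lag3 is an inhibitory receptor and Stat4 the factor downstream of IL-12 and IL-23. Il22 was low, at 0.247 ± 0.424 TPM with DHEA and 1.30 ± 1.37 TPM with methanol, and was not called (-0.72, adjusted p = 0.15), although a pseudocount of 0.1 gave a call (-1.82, adjusted p = 0.0201). Gzmb was at 0 in all 5 methanol libraries and at 0.0518 to 0.582 TPM with DHEA and was not called at a pseudocount of 1, but was at 0.1 (1.59, adjusted p = 0.000491). Ifng was listed at 0 in all 10 libraries and Tbx21, which encodes the Th1 factor T-bet, had a change of -0.02 (adjusted p = 0.946).

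Beyond the cytokines, the 14 largest falls held several surface and secreted proteins. Cyp1b1, a cytochrome that the aryl hydrocarbon receptor induces, stood at 0.674, 0.684, 0.474, 0.250 and 0.559 TPM with DHEA and 13.2, 21.9, 5.63, 7.41 and 7.96 TPM with methanol, a change of -2.86 (adjusted p = 2.46e-18). Every methanol library was at least 8.24-fold above every DHEA library, although the methanol libraries themselves spread widely. Ahr, the receptor itself, fell by 0.31 (adjusted p = 0.0158), a call lost without the wells of column 10 (adjusted p = 0.0569) and with a pseudocount of 0.1 (adjusted p = 0.162). Of the 6 listed Ahr targets tested, Ahr included, 4 fell and 1 rose, Nqo1 (0.63). Cyp1a1 (-0.007) was the member not called. Gpr15, a receptor for homing to the colon, had 7.85 ± 2.31 TPM with DHEA and 38.1 ± 6.60 TPM with methanol (-2.17). Procr, the endothelial protein C receptor, which Th17 cells also carry, had 9.92 ± 3.65 and 41.8 ± 4.90 TPM (-2.02). Ildr1 (-2.36), Gja5, a gap junction protein (-2.24), Timd2, a TIM family surface protein (-2.05), Scd1 (-2.20), Il1rn and Tmem176b also belonged to these 14. The other two were H1f0, a linker histone (-1.96), and the gene listed as WBSCR16 (-2.04), which are taken up below with the genes low in certain wells.

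Chief among the rises was Xcl1, the chemokine lymphotactin (chromosome 1, 164931644 to 164935527, minus strand), a product of activated CD8 T and NK cells and of some CD4 cells. It stood at 129, 53.9, 132, 65.4 and 105 TPM with DHEA and at 3.02, 0.545, 0.507, 0 and 0.961 TPM with methanol. All 5 DHEA libraries were at least 17.8-fold above the highest methanol library, and the change was 5.69 (SE 0.68, adjusted p = 1.23e-10). Ms4a4b, a membrane protein of resting T cells, Th1 cells and regulatory cells, stood at 89.8, 47.9, 82.3, 67.1 and 64.1 TPM and 4.74, 6.12, 3.97, 2.65 and 3.96 TPM, a change of 3.75 (SE 0.17, adjusted p = 2.76e-28). Nkg7, a cytotoxic granule protein, had 14.98 ± 5.62 TPM with DHEA and 1.25 ± 0.773 TPM with methanol (2.78). Beside these, the CD8 T and NK markers Cd8b1 and Klrd1 had the means given above, and Cd8a and Ncr1 were near 0. Among the 7 cytotoxic granule genes tested, 3 rose, Nkg7, Prf1 (0.93) and Ctsw (0.85), and 2 fell.

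Further large rises covered several functions. Ecm1, a secreted matrix protein, had 59.4 ± 10.5 TPM with DHEA and 8.59 ± 1.62 TPM with methanol (2.66). Lsp1, an actin-binding protein of leukocytes, had 206 ± 27.6 and 38.1 ± 5.84 TPM (2.40), and S100a6, a calcium-binding protein, had 16.9 ± 3.34 and 2.22 ± 0.170 TPM (2.45). Lad1, an anchoring filament protein, changed by 2.52, Slfn1, a gene of quiescent T cells, by 2.43, and H2-Q7, a class Ib histocompatibility gene, by 2.43. Reads of H2-Q7, Slfn1, Ms4a4b and Akr1c18 may be shared with near copies of these genes, which a TPM table cannot resolve. Of 15 S100, galectin and annexin genes, 9 rose and 2 fell, with a median of 0.44. Ccl4, a chemokine, changed by 1.35 (adjusted p = 0.000264), and together with Xcl1 it made up the 2 risers among 10 chemokine genes, of which only Ccl20 fell.

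Genes of naive and quiescent T cells rose together. Of 19 tested, 16 rose and 0 were called lower by limma (0 at an unadjusted p under 0.05 as well), with a median of 0.67. Ccr7, the chemokine receptor for entry into lymph nodes, stood at 1200.0, 979.7, 1109, 1174 and 1158 TPM with DHEA and at 456, 440.3, 399.6, 436 and 507 TPM with methanol. The groups lay far apart, and the change was 1.33 (SE 0.08, adjusted p = 1.91e-21). Tcf7, a factor of naive and memory cells, had 173 ± 27.6 and 70.1 ± 6.72 TPM (1.28). Klf2, which keeps T cells quiescent and circulating, changed by 1.76, its target S1pr1 by 1.05, and Dapl1 by 1.81. Cd27 (2.22), a costimulatory receptor of naive and memory cells, and Bcl2 (1.75), the survival factor, rose with them. Il7r (0.33), Foxo1 (0.15) and Tob1 (-0.15) were the 3 members not called.

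Genes that T cell receptor signalling induces rose at the same time. Of 23 tested, 17 rose and 0 were called lower (1 at an unadjusted p under 0.05), with a median of 0.61. Nr4a1, an immediate early nuclear receptor, stood at 185, 191, 138, 97.5 and 155 TPM with DHEA and 65, 49.6, 49.8, 48.7 and 51.6 TPM with methanol, a change of 1.49 (adjusted p = 2.70e-13). Nr4a3 changed by 1.60, the early surface marker Cd69 by 1.02 and Tnfrsf9 (4-1BB) by 1.96. Il2, the growth factor of activated T cells, stood at 408, 376, 537, 382 and 499 TPM and 125, 109, 191, 149 and 204 TPM, a change of 1.52 (SE 0.20, adjusted p = 3.60e-09). The receptor genes themselves were also higher, with 249 ± 17.9 TPM against 134 ± 7.55 TPM for Cd3g (0.89), 0.69 for Cd3d and 0.60 for Cd3e. Of 18 genes of the TNF superfamily, 12 rose and 1 fell, with a median of 0.55. The risers included Tnfsf8 (1.47), Tnfsf4 (1.30) and Tnfrsf18 (1.002). Tnfrsf8 (CD30), the receptor of the Tnfsf8 product, was the member that fell, from 15.8 ± 3.57 TPM with methanol to 3.83 ± 1.05 TPM with DHEA (-1.80, adjusted p = 1.78e-17).

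Inhibitory receptors and regulatory T cell genes were higher in the same libraries. Lag3 stood at 50.3, 48.8, 63.8, 38.6 and 51.8 TPM with DHEA and 6.25, 10.6, 7.97, 8.81 and 10.8 TPM with methanol, a change of 2.39 (adjusted p = 1.42e-23). Of the 11 genes of the inhibitory receptor list, 6 rose and 0 were called lower (0 at an unadjusted p under 0.05). The risers included Tigit (1.28) and Cd274 (1.65), which encodes PD-L1, a ligand and not a receptor. Pdcd1 (-0.04) and Ctla4 (-0.13) were not called. Of 13 genes of regulatory T cells, 10 rose and 0 were called lower (0 at an unadjusted p under 0.05), with a median of 0.49. Lrrc32 (GARP), which holds latent TGFb on the surface, had 14.4 ± 4.39 TPM with DHEA and 2.01 ± 0.269 TPM with methanol (2.30), and Entpd1 (CD39), an ectonucleotidase, changed by 1.14. Foxp3, which defines regulatory T cells, stood at 122, 112, 151, 143 and 143 TPM and 111, 93.8, 98.5, 132 and 114 TPM. Its groups overlapped, and its change of 0.29 was not called (adjusted p = 0.141), although a fit on these 10 libraries alone called it (adjusted p = 0.0374). Of 21 genes of the TGFb response, 12 rose and 1 fell, with a median of 0.36. Id3 (1.103) and Ldlrad4 (0.80) rose, and the member that fell was Id2 (-0.48).

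Genes of other helper lineages showed mixed changes. Gata3, the Th2 factor, rose from 0.883 ± 0.206 TPM with methanol to 5.29 ± 1.75 TPM with DHEA (1.70, adjusted p = 1.07e-16). Of 8 Th2 genes 2 rose in all and 1 fell. Of 11 Th1 genes, 6 rose and 3 fell. Risers included Cxcr6 (1.02) and Cxcr3 (0.82), and Il12rb2 (-0.75) and Il18rap (-0.74), subunits of the IL-12 and IL-18 receptors, fell. Of 12 genes of follicular helper cells 4 rose, Cxcr5 (0.94) the furthest, and 2 fell. Among 20 homing and chemokine receptor genes 12 rose and 2 fell, the integrin subunit gene Itgb1 (-1.40) and Gpr15. Among 27 cytokine receptor genes 15 rose, led by Il10ra (1.49), and 5 fell, led by Il23r. Of 24 interferon response genes 15 rose, among them Ifi27l2a (1.84) and Gbp2 (1.13), and 1 fell, with a median of 0.46.

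**Figure D2:**
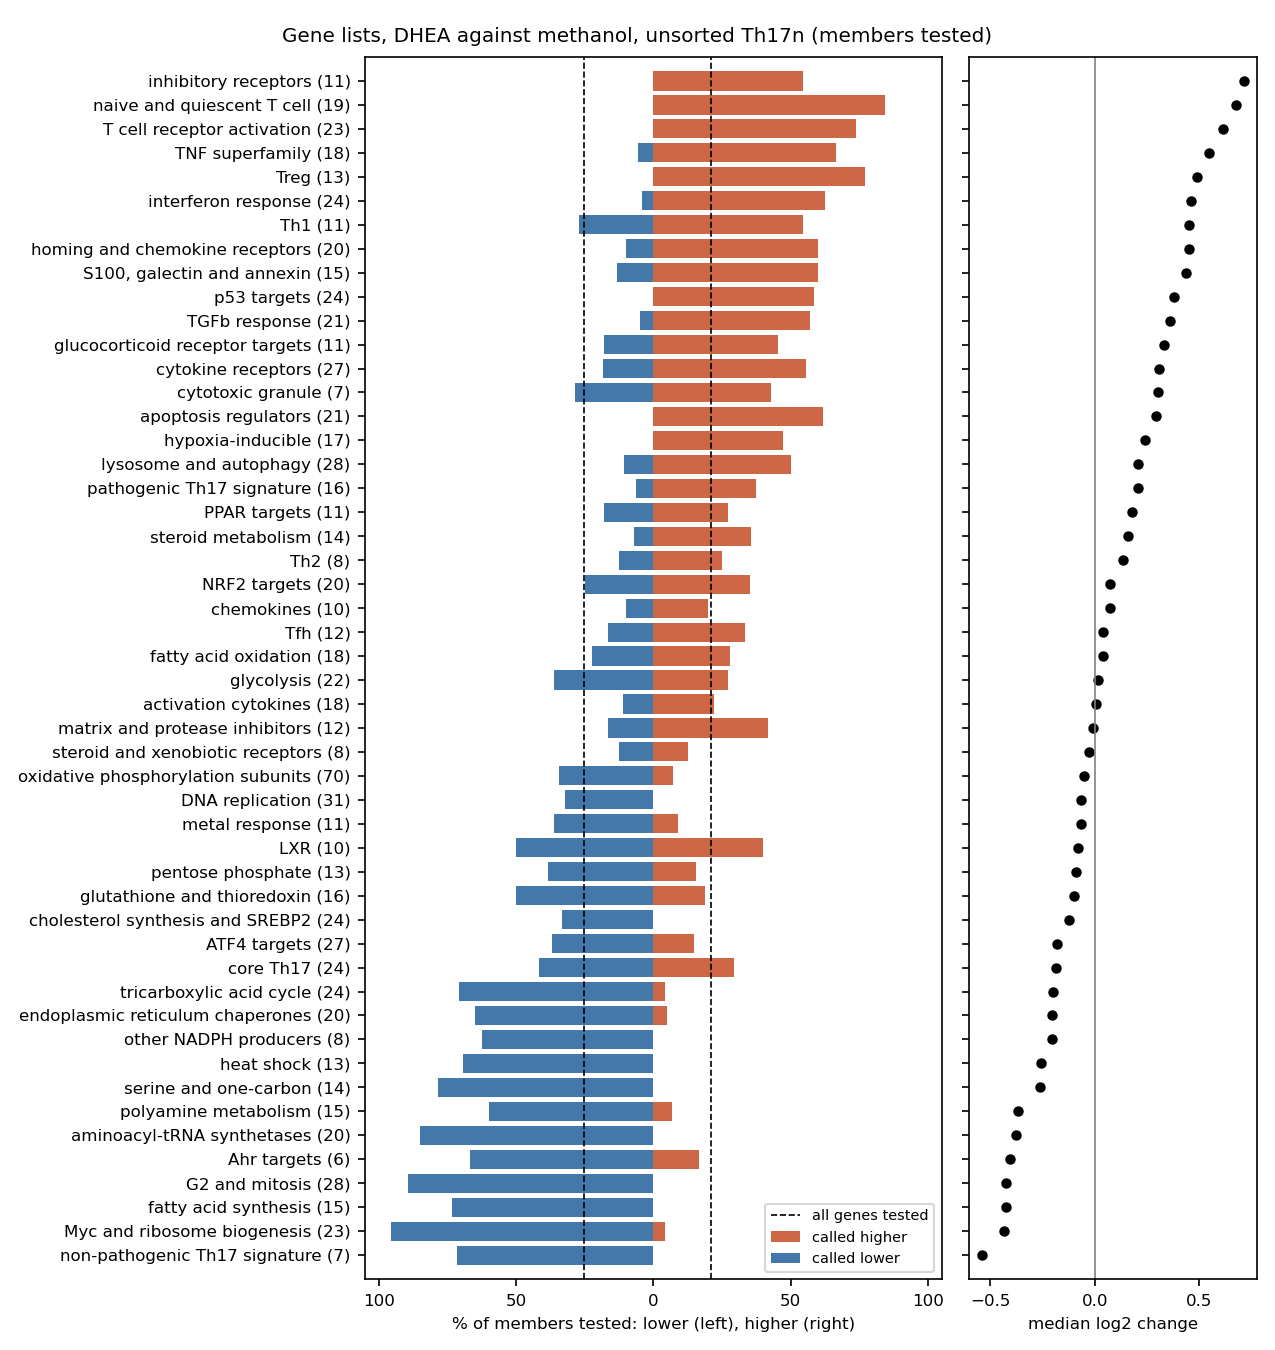
Share of each list's tested members (number in brackets) called higher (right) or lower (left) with DHEA at an adjusted p under 0.05, and each list's median log2 change, in unsorted Th17n cells. Dashed lines mark the shares over all 10672 genes, 20.8% higher and 25.3% lower, and the lists with the largest shares lower are ribosome biogenesis, G2 and mitosis and the tRNA synthetases.

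The enzyme that DHEA is known to inhibit was measured at the RNA level first among the metabolic genes. G6pdx (chromosome X, 74409483 to 74429194, minus strand), which encodes glucose-6-phosphate dehydrogenase, stood at 51.6, 48.8, 45.2, 42.4 and 51.6 TPM with DHEA and 55.02, 54.1, 53.2, 54.4 and 65.5 TPM with methanol. The groups lay side by side without overlap, and the change was -0.23 (SE 0.06, adjusted p = 0.000723). Pgd, the next NADPH-making enzyme of the pathway, had 107 ± 8.21 TPM with DHEA and 173 ± 18.7 TPM with methanol, a change of -0.69 (SE 0.06, adjusted p = 1.29e-16). In the non-oxidative branch Tkt changed by -0.21 (adjusted p = 5.05e-05), and Taldo1 by -0.08 (adjusted p = 0.12) without a call. Of the 13 pentose phosphate genes, 5 fell and 2 rose, Shpk (0.61) and Pgm2 (0.30), with a median of -0.09, where 25.3% of all genes fell and 20.8% rose. Of 8 other genes for NADPH production, 5 fell and 0 were called higher (0 at an unadjusted p under 0.05), with Idh1 (-0.37), Mthfd1 (-0.38) and Nadk2 (-0.48) among them.

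Genes for fatty acid desaturation fell. Scd1, the stearoyl-CoA desaturase, stood at 1.08, 0.919, 0.712, 0.565 and 1.08 TPM with DHEA and 4.71, 6.32, 8.39, 7.64 and 12.2 TPM with methanol, a change of -2.20 (SE 0.20, adjusted p = 4.44e-15). Scd2, the more abundant desaturase here, had 26.98 ± 2.48 TPM with DHEA and 74.6 ± 9.54 TPM with methanol (-1.43, adjusted p = 3.29e-17). Fads2, which desaturates polyunsaturated fatty acids, changed by -1.57 and Fads1 by -0.64. Of 15 genes of fatty acid synthesis, 11 fell and 0 were called higher (0 at an unadjusted p under 0.05), with a median of -0.42, Cd5l being counted in that list. Acaca (0.15) and Fasn (-0.02), which build the chain, were not called. Among 24 genes of cholesterol synthesis, 8 fell, among them Lss (-0.52) and Fdps (-0.47), and 0 were called higher (0 at an unadjusted p under 0.05). Pltp, a phospholipid transfer protein under LXR, fell by 1.22 (adjusted p = 5.11e-09), while 4 of 10 LXR genes rose and 5 fell.

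Glycolysis genes did not move one way. Of 22 tested, 8 fell and 6 rose, with a median of 0.01. Ldha, lactate dehydrogenase, had 3854 ± 239 TPM with DHEA and 5068 ± 298 TPM with methanol (-0.40, adjusted p = 2.75e-11). Slc16a1, the lactate and pyruvate transporter MCT1, changed by -0.90, Hk2 by -0.37 and Pgam1 by -0.35, while Slc16a3, the transporter MCT4, rose by 0.67 and Ldhb by 0.45. Of 24 genes of the tricarboxylic acid cycle and its feeders, 17 fell and 1 rose, with a median of -0.20, the furthest being Pcx, pyruvate carboxylase (-0.76). Of 70 subunits of oxidative phosphorylation, 24 fell and 5 rose, with a median of -0.05. Fatty acid oxidation had 5 of 18 genes higher and 4 lower. Genes for serine and one-carbon metabolism fell in 11 of 14 cases with 0 called higher (0 at an unadjusted p under 0.05), and those of polyamine metabolism in 9 of 15. Odc1, the first enzyme of polyamine synthesis, had 93.5 ± 11.3 TPM with DHEA and 130.2 ± 9.51 TPM with methanol (-0.48).

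**Figure D3:**
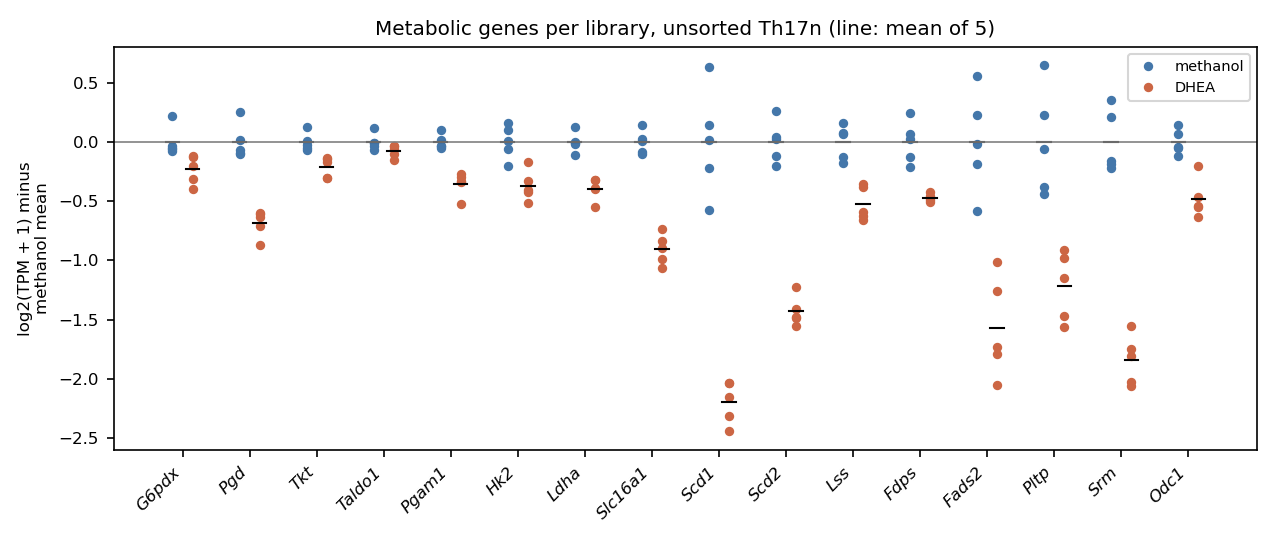
Log2(TPM + 1) of 16 metabolic genes in each unsorted Th17n library, less the mean of the 5 methanol libraries, with the mean of 5 as a line. G6pdx, Pgd and Tkt lie below methanol by 0.23, 0.69 and 0.21 on average, Scd1 and Scd2 by over 1, and Taldo1 overlaps with it.

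Genes that handle steroids were among the risers. Hsd11b1, which regenerates active glucocorticoid from its inert keto form, stood at 16.5, 9.87, 10.8, 13.4 and 10.5 TPM with DHEA and 1.41, 1.30, 1.59, 0.892 and 2.12 TPM with methanol, a change of 2.42 (SE 0.18, adjusted p = 4.65e-18). Cyp11a1, which makes pregnenolone from cholesterol, had 142 ± 15.3 TPM with DHEA and 68.3 ± 10.4 TPM with methanol (1.05). Akr1c18, a reductase that inactivates progesterone, had 10.4 ± 3.96 and 1.01 ± 1.27 TPM (2.65, adjusted p = 0.000586), and Sult2b1, a sulfotransferase of sterols, changed by 0.89. Of 14 listed steroid metabolism genes tested, which did not include Akr1c18, 5 rose and 1 fell, H2-Ke6 (-0.59), a 17-beta-hydroxysteroid dehydrogenase. With EGCG, 6 of these 14 rose and 1 fell in unsorted Th17n cells, so the count was not particular to DHEA. Among 11 glucocorticoid receptor targets, 5 rose, including Tsc22d3 (GILZ, 1.18) and Dusp1 (1.17), and 2 fell. The 2 that fell were the metallothioneins Mt1 (-1.01) and Mt2 (-1.85), which also respond to zinc, and Fkbp5 (-0.02), another glucocorticoid-induced gene, was not called.

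Mitotic genes fell with DHEA, and fewer of the DNA replication genes did. Of 28 genes of G2 and mitosis, 25 fell and 0 were called higher (0 at an unadjusted p under 0.05), with a median of -0.42. Cdc20, the activator of the anaphase-promoting complex, stood at 195, 208, 175, 163 and 178 TPM with DHEA and 339, 342, 335, 347 and 385 TPM with methanol. The change was -0.93 (SE 0.06, adjusted p = 9.90e-20), and no library overlapped. Cenpa, the centromeric histone, changed by -1.27, Hmmr, a spindle protein, by -0.86, Ccnb1, cyclin B1, by -0.71, and Plk1, the mitotic kinase, by -0.66. The promoter windows of Cenpa, Cdc20, Plk1 and Hmmr are those printed above with the CHR in capitals. Of 31 DNA replication genes, 10 fell and 0 were called higher (2 at an unadjusted p under 0.05), with a median of -0.06. Rrm2, a subunit of ribonucleotide reductase, was the furthest of them (-0.66), whereas Mcm2 (0.02), a helicase subunit, was not called.

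Targets of p53 rose in the same cells. Cdkn1a (p21, chromosome 17, 29090976 to 29100727, plus strand), which halts the cell cycle, stood at 73.02, 98.9, 118, 85.6 and 119 TPM with DHEA and 25.1, 20.8, 25.8, 21.1 and 23.4 TPM with methanol. Every DHEA library was at least 2.83-fold above every methanol library, and the change was 2.02 (SE 0.17, adjusted p = 1.90e-16). Of 24 p53 targets, 14 rose and 0 were called lower (0 at an unadjusted p under 0.05), with a median of 0.38. Trp53inp1 (1.47), Fas, the death receptor (1.42), Plk2 (1.35) and Ccng1 (0.72) rose. Mdm2 (-0.24), which restrains p53, and Bbc3 (PUMA, -0.05) were not called. Of 21 regulators of apoptosis 13 rose and 0 were called lower (1 at an unadjusted p under 0.05). They were of both kinds, with Bcl2 and Cflar (0.67) against cell death and Bcl2l11 (0.60) toward it.

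Genes for making ribosomes and charging tRNA fell. Of 23 genes of the Myc and ribosome biogenesis list, 22 fell and 1 rose, with a median of -0.43. The member that rose was Myc, with 376 ± 20.7 TPM under DHEA and 301 ± 30.8 TPM under methanol (0.32, adjusted p = 3.85e-05). Rrs1, an assembly factor of the large subunit, changed by -0.91 and Fbl, the fibrillarin methyltransferase, by -0.997. Of 20 aminoacyl-tRNA synthetases, 17 fell and 0 were called higher (0 at an unadjusted p under 0.05), with a median of -0.38, Vars (-0.81) and Yars (-0.66) the furthest. Of 20 chaperones of the endoplasmic reticulum 13 fell, and of 13 heat shock genes 9 fell, with Hspd1, the mitochondrial chaperonin, at -0.65. ATF4 targets outside these groups were mixed, with Atf3 (0.87) and Ddit3 (CHOP, 0.73) higher and Asns (-0.56) lower, and 4 higher and 10 lower of 27 in all.

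Lysosomal and hypoxia-inducible genes rose more often than they fell. Of 28 lysosome and autophagy genes, 14 rose and 3 fell, with a median of 0.21. Npc2, which moves cholesterol out of the lysosome, had 150.2 ± 11.97 TPM with DHEA and 70 ± 5.17 TPM with methanol (1.09, adjusted p = 3.61e-24), and its partner Npc1 changed by 0.67. Of 17 hypoxia-inducible genes outside glycolysis, 8 rose, led by Ndrg1 (1.46) and the mitophagy receptor Bnip3 (1.22), and 0 were called lower (0 at an unadjusted p under 0.05). The NRF2 targets, which respond to oxidative stress, had 7 of 20 higher, with Ephx1 (1.36) the furthest, and 5 lower. Of 16 genes of the glutathione and thioredoxin systems, 3 rose, Glrx (1.42) the furthest, and 8 fell.

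A set of genes, chosen in libraries of other treatments, followed the plate column of the well. The labels do not say whether a column is a mouse, so well position and mouse cannot be told apart. In each of the 8 groups of plate columns 1 to 5, the well of column 1 was low for the same 227 genes, by at least 0.5 on the log2 scale on average, and none of these 8 groups entered the comparison of DHEA with methanol. The set was chosen after its values were seen, so its counts are a description. In unsorted Th17n cells 185 of the 227 were called lower with DHEA and 2 higher, with a median of -0.82. Their mean level of log2(TPM + 1) was 3.90 to 4.16 in the DHEA libraries and 4.67 to 4.97 in the methanol libraries, without overlap. In the order of columns 6 to 10 the DHEA libraries had 3.898, 3.921, 3.968, 4.012 and 4.155, with column 10 the highest. The methanol libraries had 4.703, 4.675, 4.666, 4.907 and 4.972, again with column 10 the highest. With EGCG, 176 of the 227 were lower in unsorted Th17n cells, and with DHEA in unsorted Th17p cells 70 were higher and 4 lower. The set held H1f0, WBSCR16, Acsl3, Fbl, Srm, which makes spermidine (-1.84), Lamp1, a lysosomal membrane protein (-1.70), Rac1, a small GTPase (-1.76), and Gsr, glutathione reductase (-1.17). Their median GC content was 52.6%, against 50.8% for the other genes, and their median length 1999 against 2062 bases. Without the set, 2218 genes were higher and 2519 lower among 10445. The part of well position in the changes of these genes was not tested.

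**Figure D4:**
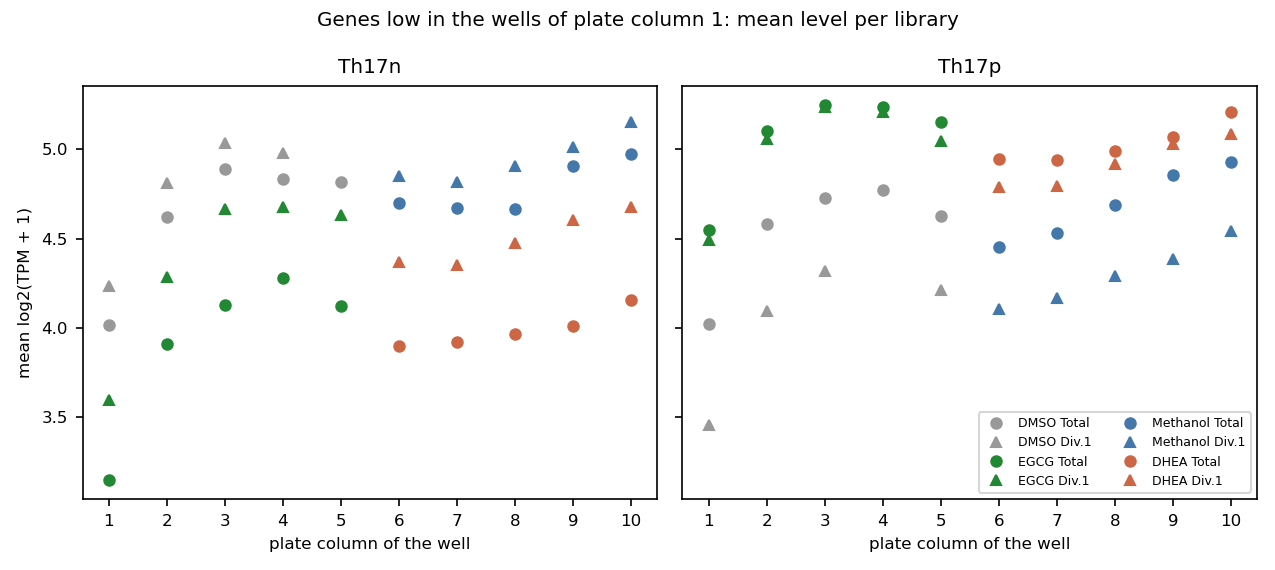
Mean log2(TPM + 1) of the 227 genes low in the wells of plate column 1, for each library by plate column, with Th17n cells at the left and Th17p cells at the right. In Th17n cells the unsorted DHEA libraries lie between 3.90 and 4.16 and the unsorted methanol libraries between 4.67 and 4.97. The genes were chosen as low in the wells of column 1, so those wells lie low in their groups by that choice.

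The effect of DHEA on Th17n cells sorted after 1 division was measured in 10 other libraries. Of 10672 genes, 3910 (36.6%) were called there, 2355 (22.1%) higher and 1555 (14.6%) lower. Of the 2220 genes higher in unsorted cells, 1517 (68.3%) were also higher in Div.1 cells, which was 64.4% of those higher there. Of the 2704 lower, 1350 (49.9%) were also lower in Div.1 cells, or 86.8% of those lower there. The difference of the effects was called for 725 genes (6.79%), 179 (1.68%) with a more positive and 546 (5.12%) with a more negative change in unsorted cells, but rescaling TPM by the median ratio gave 332 and 220. Il17a changed by -2.49 in Div.1 cells, from 141 ± 53.9 TPM with methanol to 27.1 ± 17.98 TPM with DHEA, and the difference of -1.99 had an adjusted p of 0.0389. That call was lost in 11 of the 20 fits that each left out 1 library, with adjusted p up to 0.107. The difference of Xcl1 (3.01, adjusted p = 0.043) lost its call in 15 of 20, with adjusted p up to 0.102. Il17f had a change of -1.34 in Div.1 cells and a difference of -1.13 (adjusted p = 0.00786). Pdpn, podoplanin, a surface protein of Th17n cells, fell by 1.84 in unsorted cells, from 106 ± 18.6 to 28.8 ± 5.51 TPM, and had 50.2 ± 7.56 TPM with methanol and 44.5 ± 8.38 TPM with DHEA in Div.1 cells. Its difference was -1.66 (adjusted p = 1.39e-05), and with a pseudocount of 0.1 it was not called (adjusted p = 0.114). Timd2 (-1.56, adjusted p = 0.000115), Gbp2, a guanylate-binding protein (1.43, adjusted p = 4.72e-05), and Prg4, lubricin (1.499, adjusted p = 0.00127), also differed. Differences of Cd5l (-1.47, adjusted p = 0.0166), Ccl4 (1.52, adjusted p = 0.0271) and Ganab, a glucosidase subunit (-1.51, adjusted p = 0.0488), were called but lost their calls in 2, 4 and 14 of 20 such fits. That of Ccl4 was 0.93 without the wells of column 10 (adjusted p = 0.295). Of the 22 glycolysis genes, 10 rose and 2 fell in Div.1 cells, and 9 had a more negative change in unsorted cells. Of the other listed genes, none of the 13 pentose phosphate, 5 of the 28 G2 and mitosis and 3 of the 19 naive and quiescent genes had a difference called.

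In unsorted Th17p cells DHEA gave 5094 called genes (47.7%), 2235 (20.9%) higher and 2859 (26.8%) lower. Of the genes called in Th17n cells, 1381 of the 2220 higher and 1824 of the 2704 lower had the same call in Th17p cells, and 1578 genes (14.8%) had a difference of effects, 718 (6.73%) more positive and 860 (8.06%) more negative in Th17n cells. Il17f fell further in Th17p cells (-3.28), where it went from 1573 ± 255 to 171 ± 74.9 TPM. The difference of 0.82 (adjusted p = 0.0339) lost its call in 9 of the 20 fits that each left out 1 library, with adjusted p up to 0.113, and Il17a showed no called difference (-0.82, adjusted p = 0.441). Il9 fell by 3.85 in Th17p cells, where its level was far lower (28.8 ± 9.24 TPM with methanol), a difference of 2.35 (adjusted p = 0.000639). Il22 fell from 259.7 ± 40.9 to 15.2 ± 4.19 TPM in Th17p cells (3.31, adjusted p = 2.13e-05), and Ccl3, a chemokine, from 62.3 ± 20.6 to 3.42 ± 2.72 TPM (4.19, adjusted p = 6.74e-06), while both were low in Th17n cells with either treatment. S100a6 moved in opposite directions, with changes of 2.45 in Th17n cells and -1.42 in Th17p cells (difference 3.87, adjusted p = 9.61e-17). Gzmb, granzyme B, rose in Th17p cells from 7.58 ± 2.13 to 87.1 ± 22.9 TPM (difference -3.05, adjusted p = 3.55e-11). Cyp1b1 (-2.72, adjusted p = 2.01e-10) was near 0 in Th17p cells with either treatment, and Xcl1 (3.41, adjusted p = 0.00855) rose in both types, reaching 5.84 ± 2.98 TPM with DHEA in Th17p cells. With a pseudocount of 0.1 the difference of Xcl1 was not called (adjusted p = 0.389), nor that of Il22 (adjusted p = 0.0957). Cd83, an activation marker, changed by -1.86 in Th17n cells (adjusted p = 0.0243), where 6 of the 10 fits that each left out 1 library lost the call. Its difference from Th17p cells was -3.20 (adjusted p = 0.0183) and was not called without the wells of column 10 (adjusted p = 0.132). In Th17p cells 11 of 22 glycolysis genes rose and 4 fell, and 11 had a more negative change in Th17n cells. The 28 G2 and mitosis genes showed 0 called differences, and 23 of them fell in Th17p cells. Of the 860 genes with a more negative change in Th17n cells, 179 belonged to the 227 genes low in the column 1 wells, Lamp1 (-2.83, adjusted p = 0.00173) among them.

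EGCG, against DMSO, gave 3760 called genes (35.2%) in unsorted Th17n cells, 2319 (21.7%) higher and 1441 (13.5%) lower. Between the effects of DHEA and EGCG 2833 genes (26.5%) differed, 906 (8.49%) more positive and 1927 (18.1%) more negative with DHEA, but after rescaling by the median ratio 1397 and 1371. The compounds had different solvents, doses and plate columns, so the difference sets the 2 treatments as given side by side. Il17a had a change of -0.05 with EGCG, 344 ± 61.4 TPM against 367 ± 121 TPM with DMSO, and the difference between the compounds was -4.42 (adjusted p = 5.93e-08). Il17f had 6485 ± 523 TPM with EGCG and 6801 ± 637 TPM with DMSO, a difference of -2.40 (adjusted p = 2.39e-10). Cyp1b1 went the other way with EGCG (1.01, difference -3.87, adjusted p = 6.65e-16), and Cd5l had a difference of -3.67 (adjusted p = 3.97e-11) and Cd83 one of -3.65 (adjusted p = 0.00339). More positive with DHEA were Xcl1 (4.46, adjusted p = 0.000215), Ms4a4b (2.48, adjusted p = 1.16e-12), Lrrc32 (2.48, adjusted p = 7.83e-11) and Nkg7 (2.37, adjusted p = 2.83e-05). Cdkn1a rose with both compounds and further with EGCG, from 18.7 ± 4.78 to 211 ± 22.8 TPM (difference -1.43, adjusted p = 2.17e-06). Of the 24 p53 targets 13 had a more negative difference and 1 a more positive one, and of the 28 G2 and mitosis genes 12 had a more negative one. Foxp3 fell with EGCG (-1.16) and was not called with DHEA, and its difference was 1.45 (adjusted p = 8.02e-07).

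**Figure D5:**
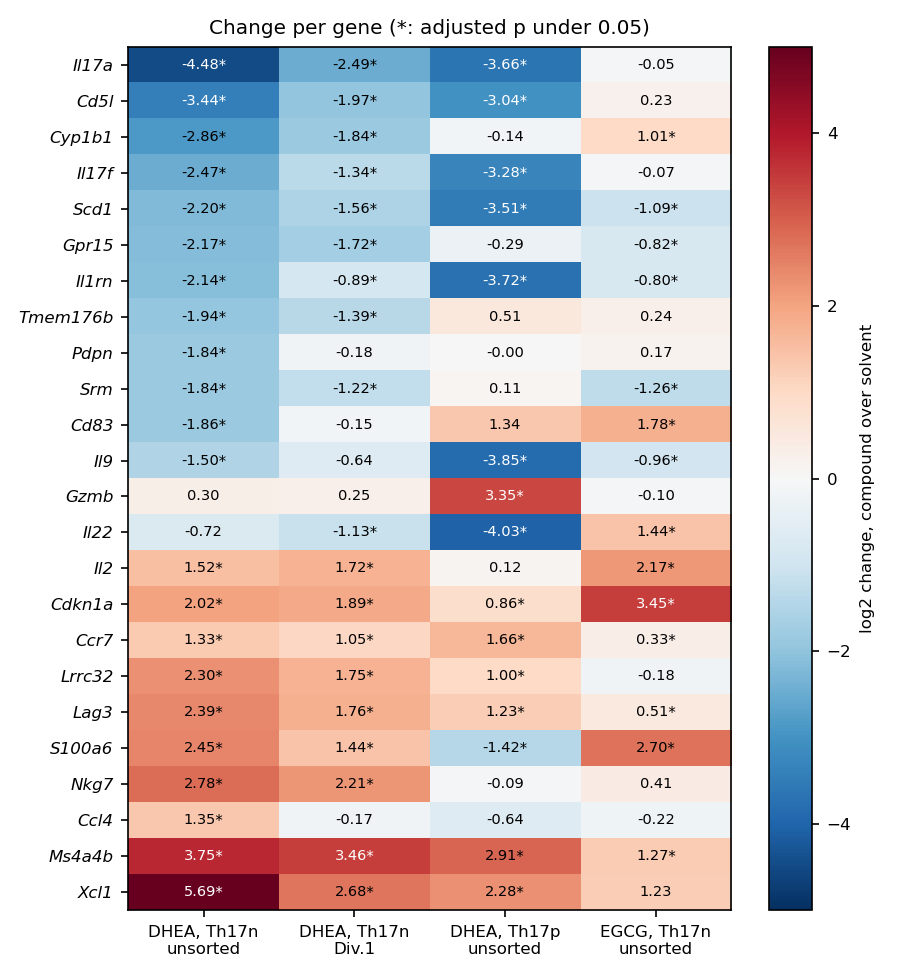
Log2 change of 24 genes with DHEA in unsorted Th17n cells, in Th17n cells after 1 division and in unsorted Th17p cells, and with EGCG in unsorted Th17n cells, each against its solvent, with an asterisk where the adjusted p was under 0.05. Il17a fell by 4.48, 2.49 and 3.66 with DHEA and had a change of -0.05 with EGCG, while Cdkn1a rose in all 4 comparisons.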

How the data were processed

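RNA of 10 unsorted Th17n libraries, 5 with DHEA and 5 with methanol, was compared. The submitters' processing notes name Trimmomatic, a read trimmer, kallisto, a transcript quantifier, and mm10, and versions were not given in the sources used here. The authors deposited 1 table of TPM for 20465 gene symbols, and 19735 of the symbols matched GENCODE vM21, the source of the positions. TPM keep no read counts, so depth is unknown and no interval for counting error can be given.

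Values were tested as log2(TPM + 1) with limma 3.58.1 in R 4.3.3 (empirical Bayes with a trend). One model held the means of all 16 labelled groups (78 libraries) over the 10672 genes at 1 TPM or more in at least 4 libraries, and a call needed a Benjamini-Hochberg adjusted p under 0.05. Differences between effects were contrasts of the same model, and share no control libraries. Well A4, whose label and plate row disagreed, was left out. Replicates were the wells of a group, described as 5 mice, so p-values measure the spread between these wells. Effects and calls were tested on simulated data before use.

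The libraries, genes and lists were chosen with earlier results of these data known. Genes named were the 14 largest called changes in each direction whose groups did not overlap and whose higher mean reached 5 TPM, up to 4 members of each list, the 4 largest called differences each way, and a panel of Th17, metabolic and receptor genes. Others, among them further list members, were named after their values were seen. Alternatives were a pseudocount of 0.1, no filter, TPM rescaled by the median ratio, a fit on the compared groups alone, a block for well column and leaving out each library. Leaving out the wells of column 10 and leaving out the 227 genes low in column 1 wells were added after seeing the data. Tables and figures were made with Python 3.11.15, pandas 2.3.3, numpy 2.4.6 and matplotlib 3.10.9.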

Additional observations from a re-analysis of the deposited data

Results flagged for a closer look

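Of the genes named, 123 were checked for single libraries that stood away from the other 4 of their group. Such libraries were found 16 times in 246 checks, where chance alone gives about 5 in 100. In the methanol group column 7 was high for Ccl4 at 70.3 TPM and for Gbp2 at 41.8 TPM, and low for Ccr6 at 15.3 TPM. Column 10 was high for Cdc20 at 385 TPM, for G6pdx at 65.5 TPM and for Yars at 125.8 TPM. Column 9 stood apart for H2-Q7 at 20.1 TPM, column 8 for Dapl1 at 1.30 TPM and column 6 for Nr4a1 at 65 TPM. In the DHEA group column 8 stood apart for Il22 at 0.998 TPM and for Mt2 at 22.8 TPM, and column 7 for Ildr1 at 5.02 TPM and for Procr at 16.3 TPM. Column 9 stood apart for Pgam1 at 830.0 TPM, for S100a6 at 11.2 TPM and for Yars at 58.7 TPM.

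For 10 picked genes the change with DHEA differed between unsorted and Div.1 Th17n cells, by a test of the difference in limma. These 10 are not a count over all genes named. Differences on the log2 scale were -1.99 for Il17a, -1.66 for Pdpn, -1.56 for Timd2, -1.51 for Ganab, -1.47 for Cd5l and -1.13 for Il17f. They were 3.01 for Xcl1, 1.52 for Ccl4, 1.499 for Prg4 and 1.43 for Gbp2.

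Between unsorted Th17n and Th17p cells 10 picked genes differed, the 4 largest called differences each way again among them by rule. Other named genes differed too. Of the 32 panel genes tested, 11 had a more positive and 4 a more negative difference. Differences of the picked genes were -3.20 for Cd83, -3.05 for Gzmb, -2.83 for Lamp1 and -2.72 for Cyp1b1. They were 4.19 for Ccl3, 3.87 for S100a6, 3.41 for Xcl1, 3.31 for Il22, 2.35 for Il9 and 0.82 for Il17f.

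Between DHEA and EGCG in unsorted Th17n cells 10 picked genes differed, the 4 largest called differences each way again among them by rule. Other named genes did too, Foxp3 among them. Of the 32 panel genes tested, 3 had a more positive and 15 a more negative difference. Differences of the picked genes were -4.42 for Il17a, -3.87 for Cyp1b1, -3.67 for Cd5l, -3.65 for Cd83, -2.40 for Il17f and -1.43 for Cdkn1a. They were 4.46 for Xcl1, 2.48 for Ms4a4b, 2.48 for Lrrc32 and 2.37 for Nkg7.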

How the results depend on the processing

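The 4924 calls of the DHEA effect ranged from 4546 to 5240 over the alternatives, with 4614 to 4741 when 1 library was left out, and rescaling by the median ratio gave 2603 higher and 2430 lower. Rescaling moved the median of all genes from -0.01 to 0.03. The difference from Div.1 cells was less stable. Its 725 calls became 260 (66 higher and 194 lower) in a fit on those groups alone and 332 higher and 220 lower after rescaling. Leaving out 1 library gave 365 to 1062 calls, 101 to 218 higher and 242 to 873 lower. The lowest and highest totals came without the Div.1 methanol libraries of columns 6 and 10. The higher calls of the difference from EGCG became 1397 after rescaling. The cause of these shifts was not tested.

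With well column as a replicate block the DHEA effect had 5240 calls and the difference from Div.1 cells 1280 (301 higher and 979 lower). Same-column deviations of DHEA and methanol libraries correlated at 0.026 to 0.191, 2 of 5 above 0.1, and 4 of 5 correlated best with their own column. Between unsorted and Div.1 libraries of a treatment, 5 of 5 correlated best with their own column, at 0.087 to 0.315 for methanol and 0.059 to 0.157 for DHEA. Since not every pair passed 0.1, the numbers were not taken as pairs, and the calls of the difference from Div.1 cells depend on that choice.

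For 122 genes the named DHEA effect was refitted under 16 alternatives each. Direction and call were kept in 1922 of 1952 refits, 17 lost and 6 gained a call, and 7 changed sign, all of Ccl3 and Tbx21, which were never called. Ccl3 ran from -0.073 to 0.329 and Tbx21 from -0.151 to 0.118 when 1 library was left out, and rescaling gave Tbx21 0.0171. Of 780 refits of the 30 named differences 76 lost their call. As depth is unknown, values near 0 TPM set no limit on a gene's absence.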

Other observations

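Genes of the matrix and of protease inhibition showed changes as large as those of many cytokine receptors. Serpinb6b (1.96), Serpine2 (1.55) and Serpinb9 (1.08), inhibitors of proteases, were called higher with DHEA by limma. Timp1, an inhibitor of matrix metalloproteinases, was called lower (-1.43). Of 12 such genes tested 5 rose and 2 fell. Of 11 tested targets of the PPAR receptors, which respond to fatty acids, 3 rose, including Acot1 (0.72), an acyl-CoA thioesterase. Fabp5, a fatty acid binding protein, fell by 0.63. Among 11 genes of the metal response 4 fell, Slc39a10, a zinc importer (-0.63), among them beside the metallothioneins.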
